A study of Raphidocelis subcapitata with 493 samples.

Results

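The early response of Raphidocelis subcapitata to FC10diol was examined in the 12 libraries labelled 0.1, 0.3, 1 and 3 µM, 3 per concentration, out of 493 libraries in the series. They were set against the 3 DMSO libraries of the same exposure. Members were chosen by the compound and concentration in the labels. No measured value entered that rule, but earlier results of these data were known when it was set. The series tested 22 per- and polyfluoroalkyl substances (PFAS), and its title names points of departure, that is, the concentration where a response starts, as its aim. Cells in exponential growth were kept in an MBL medium under constant light and exposed for 24 h. Treated and control wells alike held 0.33% solvent, and the control label names DMSO. RNA came from pooled homogenates and was read with a 3' tag kit, so each library stands for many wells and a count is taken near the end of the transcript. Concentrations are nominal, and the step labelled 3 µM is listed as 3.2 µM in the treatment protocol.

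Raphidocelis subcapitata is a unicellular freshwater green alga with a chloroplast, and it is widely used in growth inhibition tests of chemicals. PFAS carry carbon-fluorine bonds that resist breakdown, and many of them persist in water. In a test of rising concentrations, a transcript can step to a new level at the lowest concentration and stay there, or it can move in a graded way. Both kinds are described here from their levels. The files give gene identifiers with no names, and no annotation was used, so functions are not assigned. Of the genes that moved, 2 identifiers that rose and 2 that fell are printed, and the others are described by counts and sizes. In bulk cultures, a loss of cells of a state and less of a transcript per cell cannot be told apart.

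The total count of the 15 libraries lay between 948616 and 1453706, and between 10560 and 10950 of the 13429 listed genes had at least 1 count. After the filter on low counts, 9122 genes were tested. All 15 pairs of replicate libraries were further apart than sampling alone would put them (chi-square over degrees of freedom, 2.2 to 4.61), so none was taken for a duplicate. The labels do not say that replicates were separate cultures, and p-values therefore reflect library-to-library spread, possibly technical, and nothing more. In a principal component analysis of log2 CPM (counts scaled to a library total of 1000000), the second component carried 12.6% of the variance. On it the DMSO libraries had scores from -15.3 to -13.2 and the 3 µM libraries from 18.9 to 25.9. Those at 1 µM lay between 0.497 and 7.94, and those at 0.1 and 0.3 µM between -9.81 and -3.11. The first component, with 15.7%, did not order the concentrations. On it the treated libraries numbered 1 scored from 6.07 to 21.3, those numbered 2 from -13.6 to 0.606 and those numbered 3 from -19.2 to -13.6. The DMSO libraries numbered 1, 2 and 3 scored 20.5, 13.2 and 2.23, and those numbered 2 and 3 lay above the treated libraries of their number. Among treated libraries the replicate number thus moved with the first component and the concentration with the second. The part of the replicate number in the results below was not tested beyond the alternatives given.

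**Figure D1:**
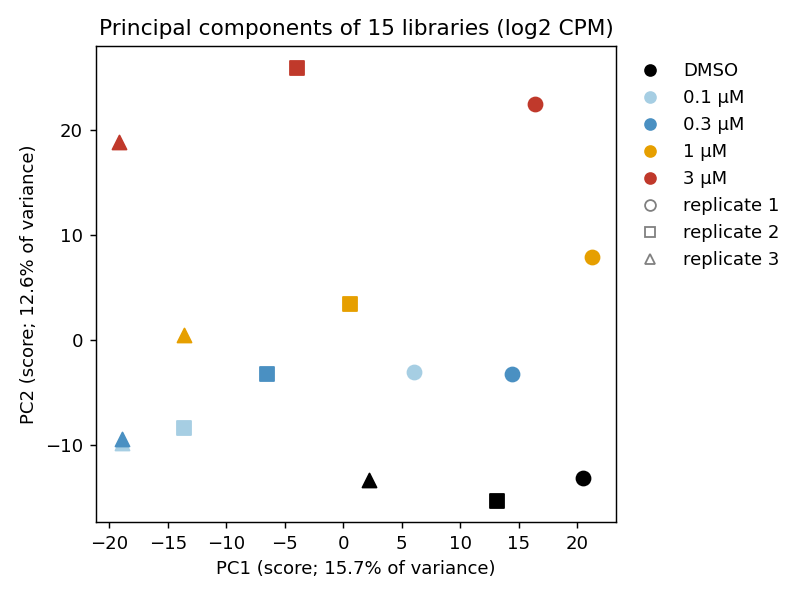
Scores of the 3 DMSO and 12 FC10diol libraries on the first and second principal components of log2 CPM over 9122 genes; colour gives the concentration and the marker shape the replicate number. The 3 µM libraries have the highest scores on the second component and the DMSO libraries the lowest, while treated libraries of the same number lie near each other on the first.

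Between 0.1 and 1 µM 31 genes or fewer were called against DMSO at each concentration, and the count went from 28 at 1 µM to 285 at 3 µM. At 0.1 µM 18 genes were higher and 1 was lower (edgeR quasi-likelihood test, Benjamini-Hochberg adjusted p under 0.05), which is 0.208% of all genes tested. At 0.3 µM 29 were higher and 2 lower, 0.34% of all tested. At 1 µM 27 were higher and 1 lower, 0.307% of all tested. At 3 µM 233 genes were higher and 52 lower, 3.12% of all tested, or 2.55% and 0.57% by direction. The share of rises among the called genes was 94.7%, 93.5%, 96.4% and 81.8% from the lowest to the highest of these concentrations.

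The median size of the called changes was 0.86, 0.97, 0.89 and 0.82 on the log2 scale at 0.1, 0.3, 1 and 3 µM, values that the threshold for a call partly sets. Large rises and large falls were both more numerous at 3 µM. From the lowest to the highest concentration, 8, 14, 10 and 106 genes were called with a change of at least 2-fold, and 89 of the 106 were rises and 17 falls. Where treated and control groups both averaged 10 counts or more, the largest rises from the lowest to the highest concentration were 1.71, 1.68, 1.76 and 3.77 on the log2 scale. The strongest falls of such genes were, in the same order, -0.56, -0.59, -1.43 and -2.31. At 3 µM, 278 of the 285 called genes had levels that did not overlap between the 3 treated and 3 control libraries, against 20.2% of all genes tested. The same libraries made the call, which largely sets this count. The median gene moved by -0.01 on the log2 scale at 3 µM. The median half-width of a gene's unadjusted 95% interval was 0.55, and a call at the adjusted threshold needs more than that for a typical gene.

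These counts depended on single libraries. Without DMSO replicate 1 they were 3, 4, 11 and 130 from 0.1 to 3 µM, without DMSO replicate 2 they were 3, 14, 18 and 188, and without DMSO replicate 3 the count at 0.1 µM was 29. Without replicate number 2 in every group they were 0, 0, 4 and 59. Without replicate number 1 the count at 0.1 µM was 16, with 10 higher and 6 lower. With the replicate number as a block in the fit it was 114, with 56 higher and 58 lower. The balance of directions at 0.1 µM thus also depended on the libraries and on the fit. Without the 3 µM library numbered 2 or 3, the count at 3 µM was 168 or 166.

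**Figure D2:**
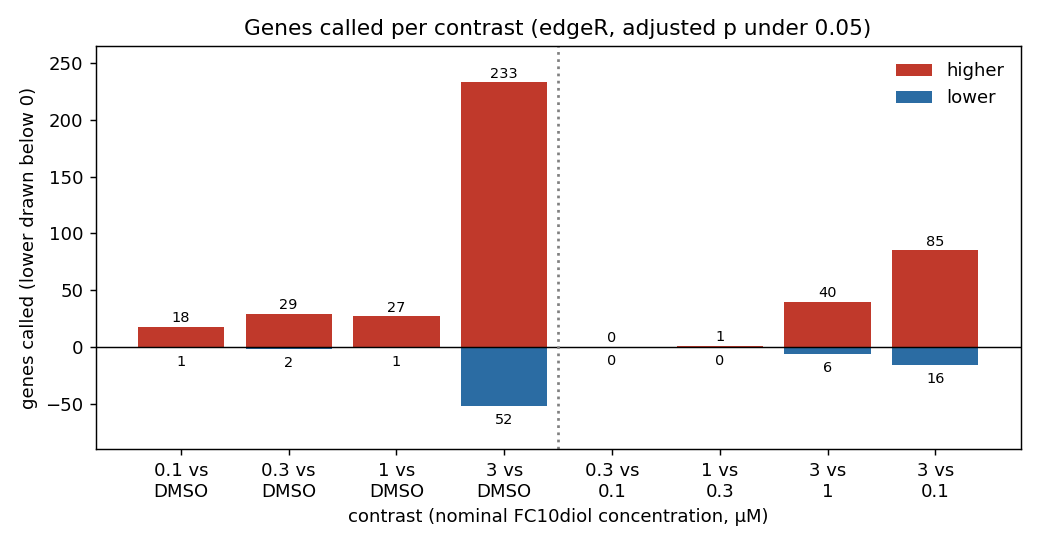
Number of genes called higher (above 0) and lower (below 0) in each contrast; the 4 contrasts on the left are against the 3 DMSO libraries and the 4 on the right compare concentrations of FC10diol with each other. Counts stay at 31 or fewer up to 1 µM and reach 285 at 3 µM, and the steps up to 1 µM call 0 or 1 gene.

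Contrasts between concentrations do not use the DMSO libraries, and among single steps that from 1 to 3 µM called the most genes. A step with few calls does not show that levels were equal. Over the 285 genes called at 3 µM, the change at 1 µM had a median ratio of 0.54 to that at 3 µM. For 128 genes the ratio was under 0.5. Both changes use the DMSO libraries that helped to choose these genes, which partly sets the ratio. Among genes called between 0.1 and 3 µM, a choice made without DMSO, median log2 changes against DMSO at 1 and 3 µM were 0.24 and 0.91 for the 85 rises. For the 16 falls they were -0.25 and -0.75. From 0.1 to 0.3 µM 0 of 9122 genes (0%) differed by edgeR, with 210 genes at an unadjusted p under 0.05 and 0 by DESeq2. From 0.3 to 1 µM 1 gene was higher, 0.011% of those tested. With replicate number 1, 2 or 3 left out, that count was 0 each time. From 1 to 3 µM 40 genes were higher and 6 lower, 0.504% of those tested. From 0.1 to 3 µM 85 were higher and 16 lower, 1.11% of those tested, and 38 of the rises were at least 2-fold. Without replicate number 2 the last 2 counts were 23 and 33, without replicate number 3 they were 30 and 66, and without the 3 µM library numbered 1 the contrast of 3 with 0.1 µM called 63.

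The DMSO libraries had no part in choosing the genes called between 0.1 and 3 µM, while the libraries at 0.1 and 3 µM chose them. Averaged over the 85 genes that rose, the log2 level minus the DMSO mean lay between -0.04 and -0.01 in the 3 libraries at 0.1 µM and between 0.07 and 0.15 at 0.3 µM. It lay between 0.19 and 0.26 at 1 µM and between 1.10 and 1.11 at 3 µM. The 3 DMSO libraries themselves ranged from -0.02 to 0.03, and the 0.1 µM libraries lay within or just below that range. Libraries at 0.3 and 1 µM thus stood above all 3 DMSO libraries for these genes, at a small part of the 3 µM level. For the 16 genes that fell, the same average was -0.06 to 0.08 in DMSO, 0.00 to 0.20 at 0.1 µM, with 2 of the 3 libraries above all DMSO libraries, and -0.17 to -0.06 at 0.3 µM. It was -0.43 to -0.09 at 1 µM, which is wide, and -0.97 to -0.83 at 3 µM.

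An extreme case is the gene that rose most from 0.1 to 3 µM where both groups averaged 10 counts or more. It was singled out by that size, and the median rise of the 85 genes in the same contrast was 0.93 on the log2 scale. Its 3 DMSO libraries held 52.3, 50.4 and 61.1 CPM. At 0.1 µM it had 46.4, 30.5 and 51 CPM, and at 0.3 µM 57.7, 35.8 and 55.1 CPM, both overlapping the control. At 1 µM it had 99.96, 90.6 and 87.8 CPM, above all control libraries, with a log2 fold change of 0.77 (edgeR adjusted p = 0.0105). At 3 µM the libraries held 694.9, 821.5 and 684.9 CPM. The fitted rise from 0.1 to 3 µM was 4.14 on the log2 scale (SE 0.15, edgeR adjusted p = 6.96e-23).

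A linear trend over the ranked concentrations from DMSO to 3 µM was found for 151 rising and 57 falling genes of 8827 tested, 2.36% (edgeR). With the DMSO libraries left out, 75 genes rose and 38 fell over 0.1 to 3 µM, 1.3% of 8713 tested. Without replicate number 1, 2 or 3 the totals with DMSO were 128, 32 and 98, and those without DMSO were 71, 19 and 47. A single step at 3 µM can also give a linear trend, so these counts do not separate graded changes from steps.

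Across the 4 contrasts with DMSO, 291 genes were called at some concentration and 0 were called in opposite directions. The lowest concentration at which a gene was called was 0.1 µM for 19 genes, 0.3 µM for 14, 1 µM for 13 and 3 µM for 245. These contrasts share their control libraries, so agreement between concentrations is not independent evidence. Of the 19 genes called at 0.1 µM, 12 were called at all 4 concentrations, and all 12 were rises. The 194 rises called at 3 µM alone had a median of 0.27, 0.29, 0.38 and 0.79 on the log2 scale from 0.1 to 3 µM, and the 51 such falls had medians of -0.27, -0.31, -0.37 and -0.79. All tested genes had medians of 0.00, 0.00, 0.00 and -0.01.

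The 12 genes called at every concentration were chosen in part by their level at 0.1 µM, so a high level there is not a finding. Their median change was 0.93, 1.03, 1.02 and 1.16 on the log2 scale at 0.1, 0.3, 1 and 3 µM. At 0.1 µM the smallest of the 12 changes was 0.68 and the largest 2.02. From 0.1 to 3 µM their levels differed by -0.07 to 0.40 on the log2 scale. In that contrast 0 of the 12 were called, where 1.11% of all genes were, so the 0 does not show a constant level. Averaged over the 12, the level minus the DMSO mean was higher at 3 than at 0.1 µM in each replicate number, 1.12 against 0.88, 1.25 against 1.06 and 1.20 against 1.14. Without DMSO replicate 1, 2 genes were called at all 4 concentrations, without DMSO replicate 2 there were 3, without replicate number 1 there were 6, and without replicate number 2 there were 0.

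**Figure D3:**
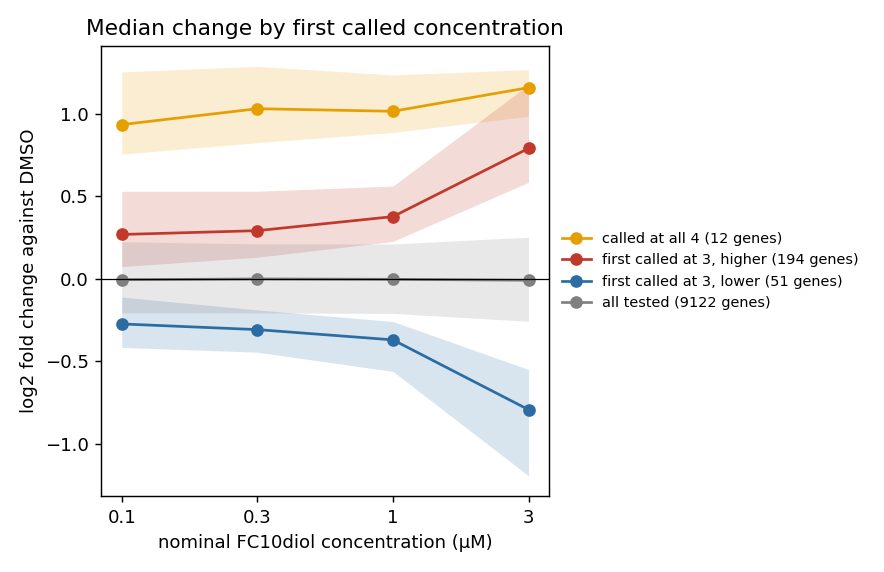
Median log2 fold change against DMSO (lines) with the range from the 25th to the 75th percentile (shading) at each concentration, for genes called at all 4 concentrations, genes called at 3 µM alone and all tested genes. The 12 genes called throughout stay between 0.93 and 1.16, and the genes called at 3 µM alone move most between 1 and 3 µM; the called groups were chosen on these contrasts.

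Rsub_12829 had the largest rise at 3 µM of the genes called at all 4 concentrations, given 10 counts or more on average in each group. The DMSO libraries held 13.8, 8.56 and 12.9 CPM, from 20, 9 and 15 counts. At 0.1 µM it had 30.1, 37.2 and 52.7 CPM, at 0.3 µM 29.8, 39 and 47.5 CPM, and at 1 µM 32.8, 46.7 and 43.4 CPM. At 3 µM the libraries held 42.9, 50.1 and 51.9 CPM. All 12 treated libraries lay above the 3 controls, and at each concentration the library numbered 1 was the lowest. The mean went from 11.7 ± 2.79 to 48.3 ± 4.79 CPM (SD, n = 3 each) between DMSO and 3 µM, which is 2.03 on the log2 scale (SE 0.29, adjusted p = 8.23e-06 by edgeR). At 0.1 µM the log2 fold change was already 1.71 (SE 0.30, edgeR adjusted p = 0.00259). From 0.1 to 3 µM it changed by 0.32 (95% interval -0.18 to 0.82, edgeR adjusted p = 0.737).

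The control level of Rsub_12829 in this exposure was the lowest of the 11 exposures of the series. The 30 DMSO libraries of the other exposures ranged from 15.4 to 56.9 CPM with a median of 29.7, and the 3 µM level of 48.3 CPM lies inside that range. Exposures were handled apart, so a comparison of levels across them is a description. Rsub_12829 was called in 0 of 19 other compounds at 3 µM against their own DMSO libraries, with log2 fold changes from -0.71 to 1.18.

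Rsub_11826 rose by a smaller factor and was likewise called at the lowest concentration. Its DMSO libraries held 31, 36.2 and 31 CPM. The values were 50.7, 76.4 and 93.6 CPM at 0.1 µM, 72.7, 80.1 and 98.8 CPM at 0.3 µM, and 49.2, 71 and 103.2 CPM at 1 µM. At 3 µM it had 74.8, 98.2 and 88.7 CPM. All treated libraries stood above all controls, and the spread between treated libraries was wide, with an SD of 27.2 CPM at 1 µM against 2.99 CPM in DMSO. The log2 fold change was 1.14 (SE 0.24, edgeR adjusted p = 0.0211) at 0.1 µM and 1.44 (SE 0.24, edgeR adjusted p = 0.000142) at 3 µM. Without replicate number 2 the change at 3 µM was 1.43 with an adjusted p of 0.0538.

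The 30 DMSO libraries of other exposures ranged from 11.3 to 67.6 CPM for Rsub_11826, so the 3 µM mean of 87.2 CPM lay above them all. It was called as a rise at 3 µM with 3 of the 19 compounds of other exposures. These were PFHxS with 1.66, PFTDoDA with 0.94 and FHxSA with 0.76 on the log2 scale (edgeR adjusted p = 3.46e-05, 0.00454 and 0.0204).

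Rsub_02754 was called at 0.3 and 3 µM, and it ranked highest among the falls at 3 µM by the number of concentrations called. Its DMSO libraries held 357, 345.4 and 360.7 CPM. It had 296.4, 238.6 and 262.4 CPM at 0.1 µM, 244, 254.1 and 214.6 CPM at 0.3 µM, and 315.4, 293.3 and 259.7 CPM at 1 µM. At 3 µM it had 255.4, 247.6 and 253.8 CPM. All treated libraries were below all controls, with no order by concentration. From 0.1 to 3 µM the log2 fold changes were -0.44, -0.59, -0.29 and -0.46 (edgeR adjusted p = 0.226, 0.0373, 0.549 and 0.045). The call at 3 µM was lost when any single DMSO library, any 3 µM library or any replicate number was left out. The 3 µM mean of 252.3 CPM lies inside the range of the other exposures' DMSO libraries, 216.5 to 528.4 CPM. At 3 µM of other compounds it was called as a fall with 3 of 19, at -0.85 with PFUdA, -0.48 with PFHxS and -0.43 with PFTDoDA on the log2 scale (edgeR adjusted p = 0.000972, 0.0341 and 0.0356).

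Rsub_11220 had the strongest fall at 3 µM of the genes averaging 10 counts or more in each group, and most of it came between 1 and 3 µM. The DMSO libraries held 190.5, 209.3 and 208.3 CPM. At 0.1 µM it had 136.6, 192.8 and 146.3 CPM, at 0.3 µM 173.2, 147.6 and 166.2 CPM, and at 1 µM 135.2, 159.7 and 146.6 CPM. At 3 µM the libraries held 46.2, 33.8 and 38.7 CPM. Only the 0.1 µM library numbered 2 overlapped the control range, and the 3 µM libraries lay below all others. The log2 fold changes at 0.1, 0.3 and 1 µM were -0.38, -0.33 and -0.46 (edgeR adjusted p = 0.515, 0.632 and 0.399). At 3 µM it was -2.31 (SE 0.20, adjusted p = 1.94e-11 by edgeR). From 1 to 3 µM it was -1.85 (SE 0.20, edgeR adjusted p = 1.47e-08), in a contrast that uses no control. Rsub_11220 was called in 0 of the 19 other compounds at 3 µM. The 30 DMSO libraries of other exposures ranged from 126.6 to 543.9 CPM, and the 3 µM libraries lay below them all.

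**Figure D4:**
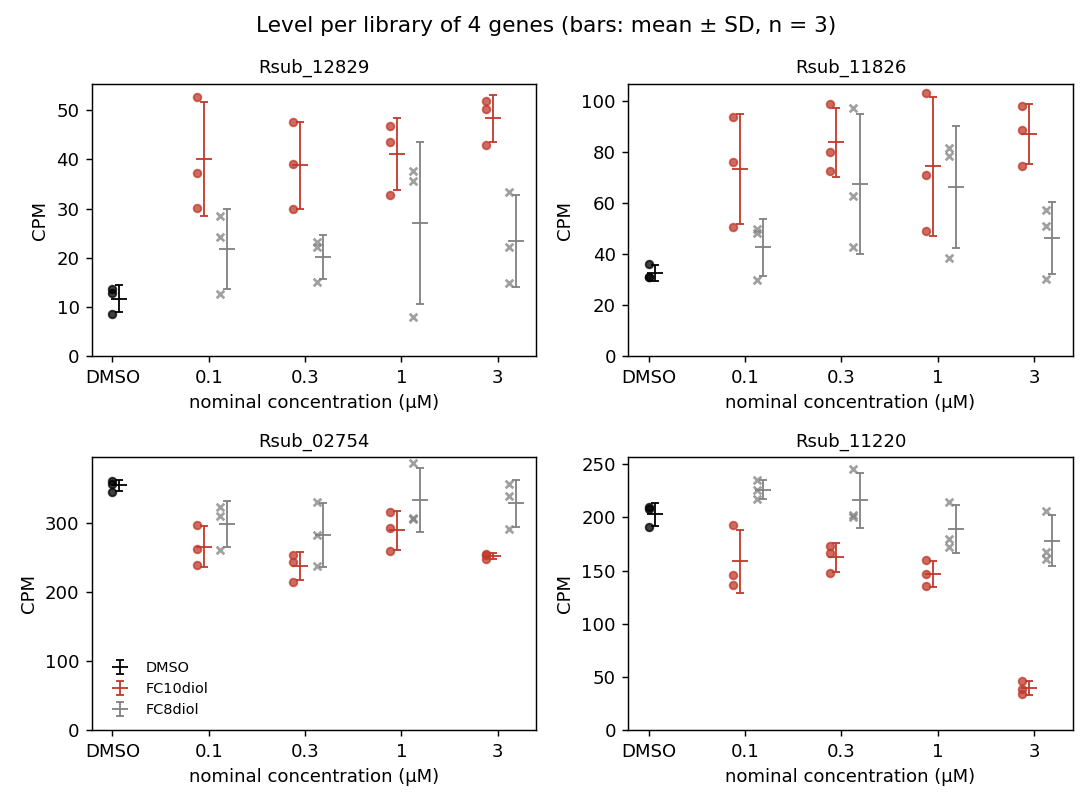
Level in CPM of 4 genes in each library against the nominal concentration, for DMSO (black), FC10diol (red) and FC8diol of the same exposure (grey crosses); horizontal marks and bars give the mean ± SD, n = 3. Rsub_12829 and Rsub_11826 are above DMSO from 0.1 µM on with FC10diol, whereas Rsub_11220 had a mean of 39.6 CPM at 3 µM FC10diol. The FC8diol means of Rsub_12829 and Rsub_11826 were also above the DMSO means at each concentration, although some single libraries were not.

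The genes that moved at 3 µM were more abundant than the typical gene. The 233 rises had a median control level of 92.4 CPM and the 52 falls 138 CPM, against 38.2 CPM over all tested genes; more counts also make a change easier to detect. The control levels of the 233 rises varied between the other 10 exposures about as much as those of all tested genes did, with a median SD of 0.43 on the log2 scale (pseudocount 1) for both. Genes called early varied more. The median SD was 0.53 for the 12 called at all 4 concentrations, and 0.54 for the 15 rises called from 0.3 or 1 µM through 3 µM. For 63 of the 233 rises this exposure had the lowest control mean of the 11, 27% against 13.7% of all tested genes, and for 15 of the 52 falls it had the highest, 28.8% against 12.6%. These shares are descriptions, since the control level helped to choose the genes. The 3 µM mean was above all 30 DMSO libraries of the other exposures for 63 rises (27%, against 4.63% of all genes) and below them all for 12 falls (23.1%, against 4.21%).

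FC8diol was tested in the same exposure with the same 3 DMSO libraries, under a label that differs in the number of its name. Contrasted directly at matched concentrations, in a joint fit of 9318 genes, FC10diol and FC8diol differed in 1 gene at 0.1 µM, 0.0107% of those tested. By edgeR they differed in 0 at 0.3 µM, with 1103 genes at an unadjusted p under 0.05. They differed in 3 at 1 µM, 0.0322%, and in 213 at 3 µM, 2.29%. At 3 µM 146 genes were higher with FC10diol and 67 lower, but without replicate number 1 the split was 191 higher and 224 lower. With p-values adjusted over the genes of the 4 contrasts together, the counts were 17, 18, 15 and 100. The median 95% half-width of a gene's difference was 0.55 on the log2 scale at 0.1 µM and 0.56 at 3 µM, so an uncalled gene may still differ. Without replicate number 1 the counts were 253, 308, 118 and 415 from 0.1 to 3 µM, without number 2 they were 0, 0, 0 and 42, and without number 3 they were 0, 0, 0 and 63.

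The change from 0.1 to 3 µM, which uses no control library, differed between FC10diol and FC8diol for 22 genes, 18 with a higher change for FC10diol and 4 with a lower one, 0.236% of those tested (edgeR). Rsub_11220 was one of them. Without replicate number 2 the count was 8. In the joint fit 119 genes differed between 3 and 0.1 µM of FC10diol, and 0 between those of FC8diol, with 805 genes at an unadjusted p under 0.05. Rsub_11220 had 226.1 ± 9.2 CPM at 0.1 µM and 178.1 ± 24 CPM at 3 µM of FC8diol (SD, n = 3 each). At 3 µM it was lower with FC10diol than with FC8diol by a log2 difference of -2.18 (SE 0.19, edgeR adjusted p = 3.24e-13). The gene was named for its fall in the same FC10diol libraries, which partly sets this difference.

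Whether the genes called at all 4 concentrations of FC10diol differ from FC8diol is not decided by the direct contrasts. For the 12 called at all 4 concentrations, FC8diol had median log2 changes of 0.63, 0.66, 0.80 and 0.60 against the shared DMSO libraries. The median difference between the compounds was 0.23, 0.35, 0.24 and 0.39 on the log2 scale. In the direct contrast 0 of the 12 were called at each of the 4 concentrations. Of all genes, 0.0107%, 0%, 0.0322% and 2.29% were called there, so 0 of 12 does not show that the compounds acted alike. Rsub_12829 had 14.9, 33.4 and 22.1 CPM at 3 µM of FC8diol, all above the highest DMSO library and below all FC10diol libraries at 3 µM, and the compounds differed there by 1.04 (95% interval 0.39 to 1.69, edgeR adjusted p = 0.0701). Rsub_11826 had 30.5, 51.1 and 57.6 CPM at 3 µM of FC8diol and differed by 0.89 (95% interval 0.29 to 1.49, edgeR adjusted p = 0.104). For Rsub_11826 the compounds differed less at 0.1, 0.3 and 1 µM, by 0.73, 0.25 and 0.10 on the log2 scale. Its change with FC8diol against DMSO was 0.41, 1.09 and 1.07 there and 0.55 at 3 µM. Of the 233 genes that rose at 3 µM of FC10diol, which include the 12, 75 differed from FC8diol at 3 µM, where 2.29% of all genes did. The same FC10diol libraries chose those genes, so nothing is read from this share, and no difference between the 12 and the others was tested.

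In the other 10 exposures, which share no control library with FC10diol, 19 compounds had a 3 µM group. Of the 233 rises, 83 were also called as rises at 3 µM of some compound in at least 1 other exposure, where 9.8% of all tested genes were. In at least 3 exposures 20 of the 233 were called, against 0.428% of all genes, and none of them in more than 6. Of the 52 falls, 18 were called as falls in at least 1 other exposure, against 4.86% of all genes, and 2 in at least 3, against 0.0987%. More abundant genes are called more readily, so these shares are descriptions. PFTDoDA held the most rises, 52 of the 232 tested there, or 22.4%, against 1.63% of all genes tested, and they made up 33.5% of its own rises. PFHxS held 30 of 226, or 13.3%, against 3.17% of all genes, and these were 10% of its rises. PFTP and FHxSA held 19 of 228 each, or 8.33%, against 5.26% and 1.03% of all genes. PFUdA held 18 of 224, or 8.04%, against 0.531% of all genes. Among the falls, PFHxS held 10 of 51, or 19.6%, against 1.37%, and PFTDoDA held 5 of 50, or 10%, against 0.853%. The median change of the 233 rises, on the log2 scale, was 0.29 with PFTDoDA, 0.24 with PFUdA, 0.15 with PFHxS, 0.07 with FHxSA and 0.07 with PFTP, the first pair being the highest of the 19. Some of the 233 were called in the opposite direction, 3 with FHxSA, 3 with PFTeDA and 2 with PFPB, and 1 each with PFTP and PFUdA. Some of the 52 falls were called as rises, 2 with PFTDoDA and 1 with FHxSA.

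**Figure D5:**
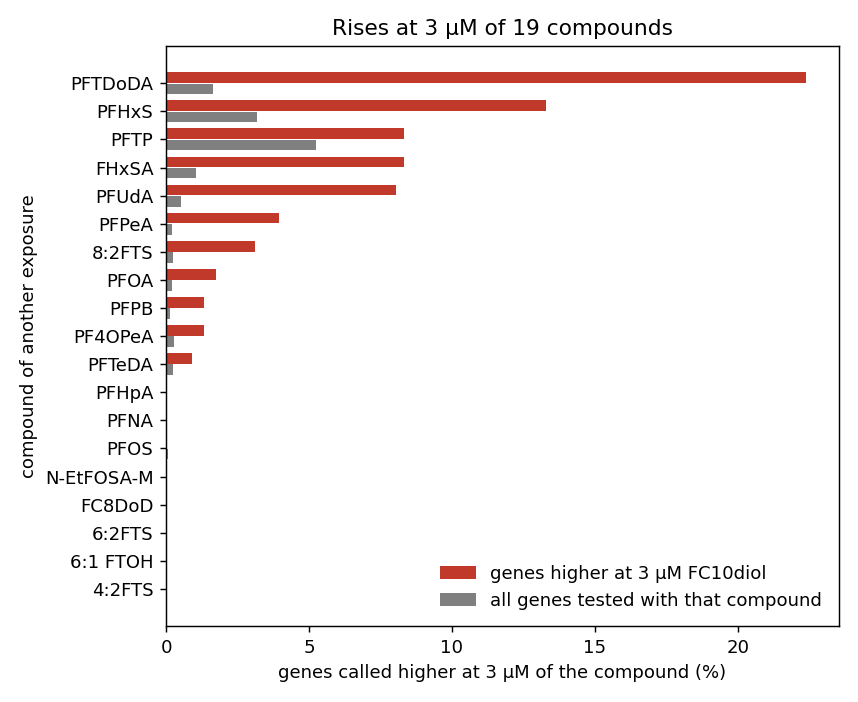
Percentage of genes called higher at 3 µM of each of 19 compounds from other exposures, among the genes that rose at 3 µM FC10diol (red) and among all genes tested with that compound (grey). PFTDoDA has the longest red bar at 22.4%, against 1.63% of all genes, and 8 compounds have a red bar of 0.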

How the data were processed

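The deposited tables hold whole-number counts per gene, for which the submitters' processing notes list featureCounts 2.0.6, STAR 2.7.10a, fastp 0.23.2 and SAMtools 1.15.1. As deposited, these counts carry no normalisation that the values show (whole numbers with differing totals). Not given in the sources used here: genome build, annotation, and how molecular identifiers were handled. Without collapsing of identifiers, amplification copies would add to the counts. Groups came from the labels. Each group had 3 libraries.

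The tests used edgeR 4.0.16 under R 4.3.3 (TMM scaling, low counts filtered with filterByExpr, robust quasi-likelihood fit), with p-values adjusted over all genes of a fit and a threshold of 0.05. FC10diol at all 7 concentrations and its DMSO libraries were fitted together. Libraries at 10 µM and above thus entered the filter on low counts, the scaling and the estimate of the spread, but no comparison. FC8diol was added for direct contrasts. Intervals are the estimate ± 1.96 SE. The scripts were tested on simulated data. Alternatives included DESeq2 1.42.0, other scaling, no filter and leaving out libraries. The fit with FC8diol, the fits without single 3 µM libraries and all alternatives for genes called at 4 concentrations were added after seeing the data.

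Named genes were those called at 3 µM with a mean of 10 counts or more per group, ranked by the number of low concentrations called and then by size, the first 2 in each direction. Members and lists were chosen with earlier results of these data known. No gene list could be matched to identifiers without names.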

Additional observations from a re-analysis of the deposited data

Results flagged for a closer look

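The change from 0.1 to 3 µM differed between FC10diol and FC8diol for 22 genes, by a test of the difference itself (an interaction contrast in edgeR, 9318 genes). The median size of the difference was 1.44 on the log2 scale, and 18 of the 22 had the higher change with FC10diol. Rsub_11220 was among the 4 with the lower change, with a difference of -1.61 (SE 0.25, edgeR adjusted p = 4.51e-05), where the median of the 4 was -1.57. It was named for its fall at 3 µM of FC10diol, and those libraries enter this test, which partly sets the size. All 3 FC10diol libraries at 3 µM were below all 3 FC8diol libraries for that gene.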

How the results depend on the processing

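Of 251 alternative values, most of them counts, 163 kept their call or stayed within 1.5 times. Counts from 0.1 to 3 µM against DMSO were 8, 14, 10 and 106 with a 2-fold minimum. At 0.1, 0.3 and 1 µM they were 39, 60 and 54 by DESeq2, 48, 65 and 59 with no filter on low counts, and 8, 9 and 16 when fitted with FC8diol. With no filter, 25 genes were called at all 4 concentrations, and the contrast of FC10diol with FC8diol called 2 genes at 0.1 µM and 1 at 0.3 µM. With only DMSO and 0.1 to 3 µM libraries, counts against DMSO from 0.1 to 3 µM were 26, 37, 41 and 287. In that fit the contrast of 1 with 0.3 µM called 0. Counting onset only where every higher concentration was called too gave 12 genes at 0.1 µM and 3 at 0.3 µM. The causes of these differences were not tested.

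With replicates left out, counts against DMSO ranged from 0 to 29 at 0.1 µM, 0 to 38 at 0.3 µM, 4 to 30 at 1 µM and 59 to 243 at 3 µM. The contrasts between concentrations ranged from 0 to 1 (1 with 0.3 µM), 23 to 47 (3 with 1 µM) and 33 to 88 (3 with 0.1 µM). Genes called at all 4 concentrations ranged from 0 to 15, and trends from 32 to 128 with DMSO and 19 to 71 without it. Differences from FC8diol ranged from 0 to 253, 0 to 308, 0 to 118 and 42 to 415 by concentration, and from 8 to 18 for the change from 0.1 to 3 µM. Fits without a replicate hold fewer libraries.

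Same-numbered libraries correlated in their deviations at -0.02 to 0.23 (13 of 30 pairs over 0.1). Differently numbered ones did so at -0.23 to 0.08 (0 of 60 pairs over 0.1). Of 15 libraries, 12 correlated best with their own number, so libraries of a number shared part of their deviations. With DMSO, 1 of 12 same-numbered pairs was over 0.1. The labels do not say what the number stands for, and the main fit did not use it. With the replicate number as a block, counts against DMSO were 114, 93, 69 and 464. The split of higher and lower was 56 and 58 at 0.1 µM, 61 and 32 at 0.3 µM, 56 and 13 at 1 µM, and 334 and 130 at 3 µM, so the excess of rises at 0.1 µM was not seen with the block. With it, 28 genes were called at all 4 concentrations, 11 of them among the 12. The block gave 71 for 3 with 1 µM, 195 for 3 with 0.1 µM, 369 and 358 for the trends, 212, 186, 151 and 649 for FC10diol against FC8diol, and 34 for the difference of changes. By concentration, 48 of the 212, 58 of the 186, 53 of the 151 and 348 of the 649 were higher with FC10diol, whereas 164, 128, 98 and 301 were lower. Counts of about 1000000 per library limit which small changes of single genes can be called.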
